A study of Mus musculus with 6 samples.

Results

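Il10 encodes interleukin-10, a secreted cytokine that restrains inflammatory responses. It signals through a receptor made of the chains encoded by Il10ra and Il10rb, and in myeloid cells this lowers the output of inflammatory cytokines such as Tnf, Il6 and the Cxcl and Ccl chemokines. Macrophages, regulatory T cells and some B cells are known sources of it, and Kupffer cells, the macrophages resident in liver sinusoids, are a classic source in liver. Il10 was followed as 1 of 5301 features found in at least 1 of 3 matrices, matched by its symbol in each matrix. The gene (ENSMUSG00000016529.5) lies on the plus strand of chromosome 1 at 131019845 to 131024974 in build GRCm38, with 5 exons in its 1 annotated transcript and no other annotated gene overlapping it.

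The cells were CD45+ immune cells sorted from small liver pieces of Balb/c mice, an immunocompetent strain, after intracardiac injection of 4T07 cells, a mouse mammary tumour line. The tumour cells were either control (Ctrl) or carried a short hairpin knockdown of Tim3 (Tim3-KD), so the knockdown was in the injected line and not in the sorted host cells. For each line there was 1 library of adjacent liver tissue and 1 of micrometastasis, both at day 3, and 1 of macrometastasis at day 12. Each of the 6 libraries pooled mice and was the only one of its group, so no test between groups was made, and site and day cannot be told apart between macrometastasis and the day 3 samples. Unique molecular identifiers (UMIs, each marking 1 captured RNA molecule) were recovered from the deposited scaled scores. Levels are CPM, UMIs scaled to 1000000 UMIs of all genes in the same cells, and ranges in parentheses are exact 95% intervals for counting error only.

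The libraries held 542 to 5502 cells with median totals of 6300 to 10248 UMIs per cell, and pairs of libraries shared 0 to 11 cell barcodes. Adjacent Tim3-KD tissue stood apart in its cells: 542 against 1803 in adjacent Ctrl, with Kupffer-like cells at 19.6% against 1.72%. Scores had been capped by the authors, so the Il10 value of 36 of the 772 cells with Il10 is a lower bound. These capped cells were 2 and 5 in the adjacent Ctrl and Tim3-KD libraries, 10 and 14 in micrometastasis, and 5 and 0 in macrometastasis.

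Il10 was rare. It was seen in 772 of 23008 cells, with 2564 UMIs in all. Adjacent tissue held 2.12 CPM (1.64 to 2.71) in Ctrl and 21.4 (18.2 to 25.1) in Tim3-KD. Micrometastasis held 2.73 (2.32 to 3.20) in Ctrl and 3.11 (2.74 to 3.53) in Tim3-KD. Macrometastasis held 22.1 (20.7 to 23.5) in Ctrl and 15.6 (14.7 to 16.6) in Tim3-KD. By summed CPM, adjacent Tim3-KD tissue and both macrometastases were therefore high and the other 3 libraries were low. These CPM intervals did not overlap between the high and the low libraries. By shares of cells with Il10, adjacent Tim3-KD at 4.24% (2.71 to 6.30) overlapped micrometastasis Tim3-KD at 2.41% (2.01 to 2.87). As a mean over cells these libraries stood at 10.4 and 5.45 CPM.

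Kupffer-like cells held most of this signal. They were 2405 cells in 2 of 26 clusters, named from markers such as Clec4f, Timd4, Vsig4 and Cd5l, and each of these 4 genes had a UMI in at least 93.5% of Kupffer-like cells in every library. Across the series they carried 1940 of the 2564 Il10 UMIs, or 75.7%. Their share was 60% (47.1 to 72.0) in adjacent Ctrl, 94.7% (89.9 to 97.7) in adjacent Tim3-KD, 47.7% (39.6 to 55.9) in micrometastasis Ctrl and 63.1% (56.7 to 69.1) in micrometastasis Tim3-KD. In macrometastasis it was 84.8% (82.3 to 87.0) in Ctrl and 72.4% (69.5 to 75.2) in Tim3-KD. Kupffer-like cells held under 20% of the cells in each library.

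**Figure D1:**
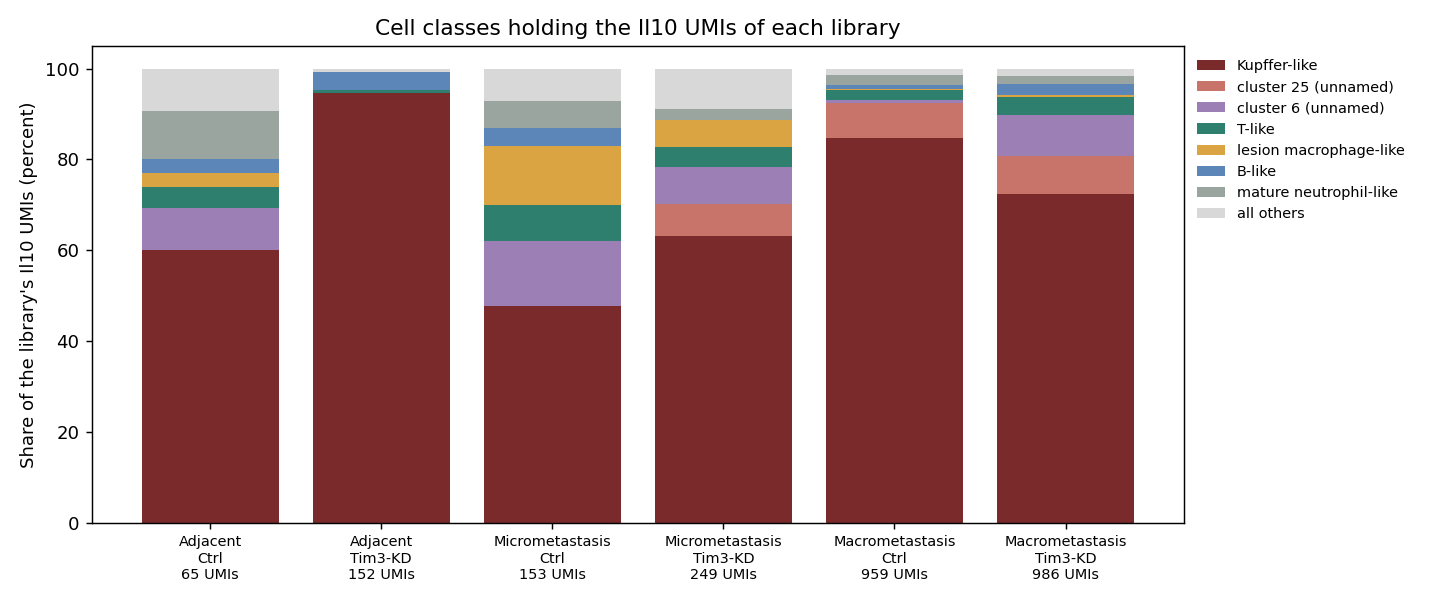
Share of each library's Il10 UMIs (percent, stacked bars) held by each cell class, with the number of Il10 UMIs under each library. Kupffer-like cells are the largest part of every bar, from 47.7% in micrometastasis Ctrl to 94.7% in adjacent Tim3-KD tissue.

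Within the Kupffer-like class the levels were far less uneven than in whole libraries. Adjacent Ctrl tissue gave 104 CPM (73.7 to 142), from 31 cells only. Adjacent Tim3-KD tissue gave 93.4 (78.8 to 110). Micrometastasis gave 29.5 (23.1 to 37.1) in Ctrl and 68.6 (58.3 to 80.2) in Tim3-KD. Macrometastasis gave 106 (99 to 114) in Ctrl and 68.2 (63.3 to 73.4) in Tim3-KD. Micrometastasis Ctrl was the lowest by summed CPM, and its CPM interval overlapped that of no other library. By shares of Kupffer-like cells with Il10, micrometastasis Ctrl at 9.82% (6.57 to 13.96) overlapped adjacent Tim3-KD at 16% (9.63 to 24.43). In adjacent Tim3-KD tissue 4 cells held 50% of the Il10 UMIs of the class.

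In shares of cells, Il10 was seen in 10 of 31 and 17 of 106 Kupffer-like cells of adjacent Ctrl and Tim3-KD tissue. It was seen in 27 of 275 and 66 of 255 of those in micrometastasis, and in 182 of 803 and 160 of 935 in macrometastasis. These shares were 32.3%, 16%, 9.82%, 25.9%, 22.7% and 17.1%, at median totals of 8685 to 12040 UMIs per cell. Thinned to 1500 UMIs per cell, which left out no cell, they became 12.1%, 5.35%, 4.08%, 9.27%, 9.82% and 5.98%. For comparison, neutrophil precursor-like cells, which are not a known source, had Il10 in 13 of 2742 cells (0.474%) at a median of 29752 UMIs, and endothelial-like cells had it in 1 of 632 (0.158%) at 3988 UMIs. The Kupffer-like shares lay far above both. In adjacent Ctrl tissue a doublet score over 0.15 was found in 10% of the 10 Kupffer-like cells with Il10 and in 47.6% of the 21 without.

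Across the 5 libraries with at least 50 Kupffer-like cells, this class ranked first of the classes of that size. Its level was 35.2 times that of the next class in adjacent Tim3-KD tissue, the B-like cells (15.8 to 97.6). It was 4.48 times that of the next class in micrometastasis Ctrl, the unnamed cluster 6 led by Ctla2a and Cd34 (2.75 to 7.57). The unnamed cluster 25 led by Pf4 and Thbs1 came next in the other 3, with a Kupffer-like level 2.15 times its own in micrometastasis Tim3-KD (1.32 to 3.72), 3.59 times in macrometastasis Ctrl (2.83 to 4.62) and 1.98 times in macrometastasis Tim3-KD (1.57 to 2.51). Below it, the neighbours in the order that differed beyond counting error were lesion macrophage-like over T-like cells in micrometastasis Tim3-KD (3.87, 1.66 to 9.32), cluster 25 over T-like cells in macrometastasis Ctrl (4.73, 2.88 to 8.09), and cluster 25 over cluster 6 (2.32, 1.70 to 3.17) and cluster 6 over T-like cells (1.65, 1.12 to 2.47) in macrometastasis Tim3-KD. At levels under 5 CPM the same held for 3 pairs of micrometastasis among monocyte-like cells, neutrophils and cluster 6. All other neighbours with Il10, and every pair in adjacent Ctrl tissue, where Kupffer-like cells were too few to rank, had intervals that included 1.

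**Figure D2:**
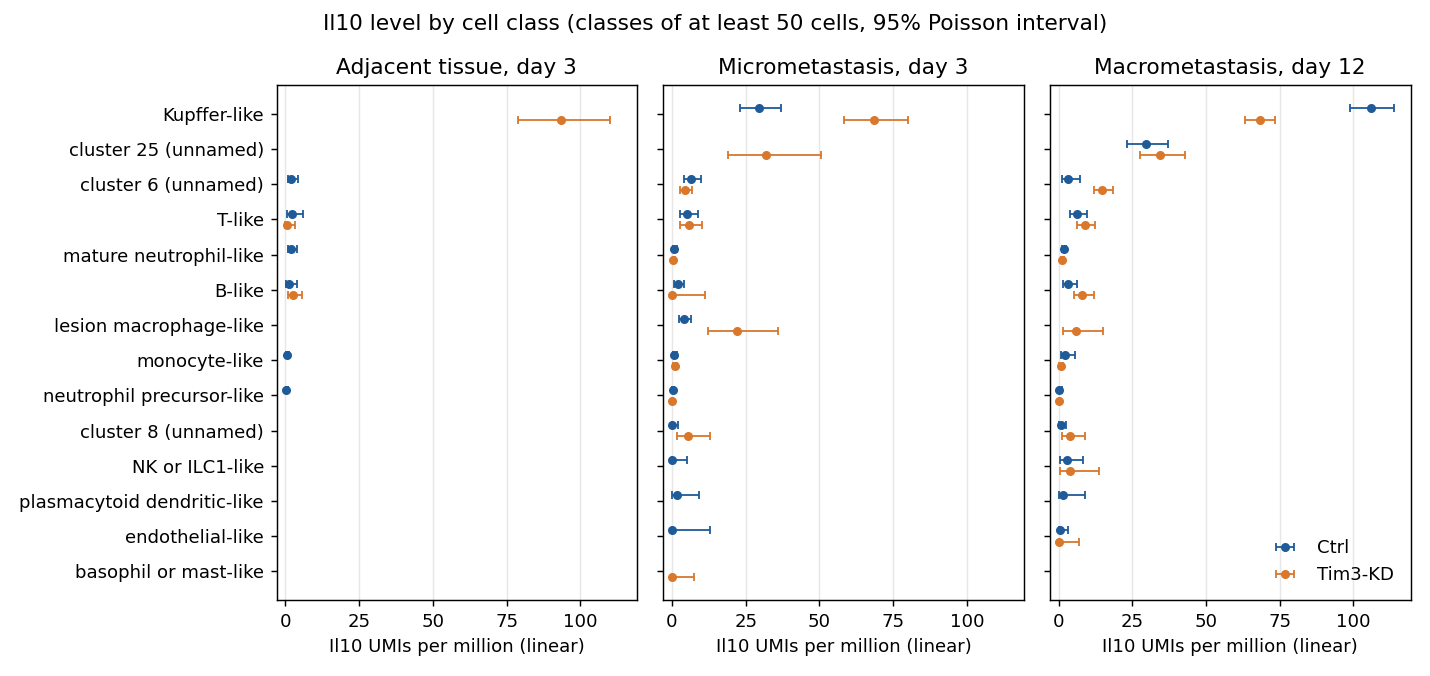
Il10 CPM (linear axis) in each class of at least 50 cells, with Ctrl in blue and Tim3-KD in orange at each site. Points are single libraries and bars are 95% Poisson intervals. Kupffer-like cells, too few to be shown for adjacent Ctrl tissue, have the highest level in each of the other 5 libraries, and most other classes lie near 0.

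The Kupffer-like class was not uniform. It split into cluster 23 (2029 cells) and cluster 22 (376 cells), and the clustering did not use Il10. Cluster 23 held 1933 Il10 UMIs and cluster 22 held 7, or 84.2 CPM (80.5 to 88.1) against 3.74 (1.5 to 7.70). The level in cluster 22 was 0.0444 times that in cluster 23 (0.0178 to 0.0916).

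Library by library, cluster 22 held 0 Il10 UMIs in 9, 60, 4 and 66 cells of adjacent Ctrl, micrometastasis Ctrl, micrometastasis Tim3-KD and macrometastasis Ctrl. It held 5 UMIs in 56 cells of adjacent Tim3-KD tissue, where the level of cluster 23 would have given 54.7. In macrometastasis Tim3-KD it held 2 UMIs in 181 cells, where 61 would have been given. For adjacent Ctrl tissue and micrometastasis Tim3-KD, with 4.66 and 0.958 UMIs at that level, the depth could show little.

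These clusters shared their Kupffer cell genes. Clec4f, a lectin of Kupffer cells, stood at 7228 CPM in cluster 23 and 6349 in cluster 22 of adjacent tissue, at 5154 and 5759 in micrometastasis, and at 6889 and 6774 in macrometastasis. Among the genes that differed between them were immediate early and stress genes, which cells switch on within minutes to hours of stimulation. Fos, part of the AP-1 transcription factor, stood at 3901 against 33.7 CPM in adjacent tissue, 3051 against 16.1 in micrometastasis and 2441 against 68.2 in macrometastasis. Of such genes, chosen after the data were seen, 14 of 14, 13 of 13 and 11 of 11 measured at the 3 sites were at least 1.5 times higher in cluster 23, as were 43%, 56.1% and 50.6% of all genes tested, while 9.09%, 6.28% and 7.09% were lower. Of the inflammatory cytokines that IL-10 is known to hold down, 7 of 7, 8 of 8 and 7 of 7 were higher in cluster 23 as well, with median log2 ratios of 3.87, 4.65 and 3.46 beside 0.43, 0.76 and 0.59 over all genes, and of the regulators of Il10 transcription 4 of 7, 6 of 7 and 5 of 6. The clusters were cut on the genes held by all matrices, with Fos and others of these genes among them, so this is a description. Cluster 22 cells were also shallower, with a median of 4367 UMIs against 10924. Il10 was seen in 22.6% of cluster 23 cells and 1.06% of cluster 22 cells, and thinned to 1500 UMIs per cell in 8.75% and 0.387%, a gap of about the same ratio at equal depth. Whether immediate early gene activity has a part in it was not tested.

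**Figure D3:**
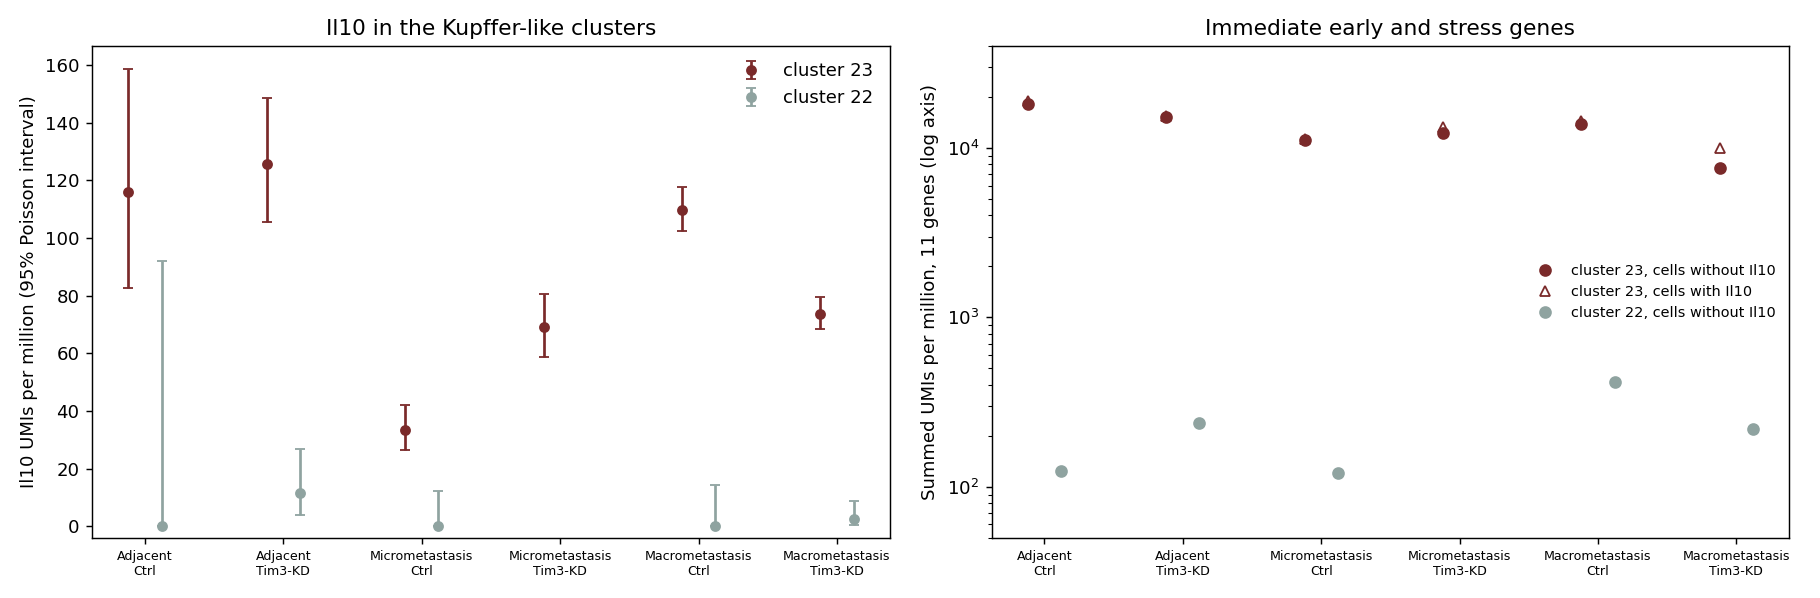
Left, Il10 CPM in the Kupffer-like clusters 23 and 22 of each library, with 95% Poisson intervals (cluster 22 of micrometastasis Tim3-KD, with 4 cells, is left out). Right, summed CPM of 11 immediate early and stress genes on a log axis, in cells with Il10 (open triangles) and without (filled circles). Cluster 22 lies near 0 for Il10 and below 500 for these genes, whereas in cluster 23 cells with and without Il10 lie close together except in macrometastasis Tim3-KD, at 9988 and 7581.

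Inside cluster 23 the summed immediate early genes lay close between cells with and without Il10 in 5 libraries and less so in macrometastasis Tim3-KD. Their summed level was 18890 against 18141 CPM in adjacent Ctrl, 15469 against 15262 in adjacent Tim3-KD, 11239 against 11150 in micrometastasis Ctrl and 13272 against 12186 in micrometastasis Tim3-KD. In macrometastasis it was 14407 against 13927 in Ctrl and 9988 against 7581 in Tim3-KD. Macrometastasis Tim3-KD had the lowest levels and the widest gap in these sums, and 4 of 11 of these genes were at least 1.5 times higher there in cells with Il10, as were 6.14% of all genes, with a median log2 ratio of 0.40. By the median cell the gap was 9094 against 6646 CPM there and 14133 against 11171 in micrometastasis Ctrl, where the sums were near each other. Markers of other cell types were present in cluster 23 at summed levels, over the 6 libraries, of 1.76 to 17.9 CPM for 5 T cell genes, 17.9 to 50.5 for 5 B cell genes, 52.4 to 185 for 3 neutrophil genes, 359 to 635 for 9 endothelial genes and 1019 to 1612 for 4 hepatocyte genes. Between cells with and without Il10, the T cell genes stood at 47.7 against 4.80 CPM in micrometastasis Tim3-KD and 35.2 against 5.15 in adjacent Ctrl, and the neutrophil genes at 242 against 164 in micrometastasis Tim3-KD. Other libraries went the opposite way, with neutrophil genes at 70.5 against 232 CPM in adjacent Ctrl, and in micrometastasis Ctrl T cell genes at 3.76 against 11.5 and B cell genes at 18.8 against 55.0. Their part in the Il10 values was not tested.

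Il10 was concentrated in few cells of cluster 23. In macrometastasis Ctrl, 182 of 737 cells had Il10, the median cell with it had 3 UMIs, 26 cells had at least 10, and 33 cells together held 50% of the cluster's Il10. In macrometastasis Tim3-KD the figures were 158 of 754 cells, a median of 3 UMIs, 19 cells with at least 10, and 25 cells for 50%. Adjacent Tim3-KD tissue had 15 of 50 cells with Il10, a median of 8 UMIs and a highest value of 27, and 4 cells held 50%. Adjacent Ctrl tissue had 10 of 22 cells with a median of 2 UMIs. In micrometastasis 27 of 215 Ctrl cells and 66 of 251 Tim3-KD cells had Il10, each with a median of 2 UMIs and highest values of 11 and 8, with 7 and 11 capped cells among them.

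**Figure D4:**
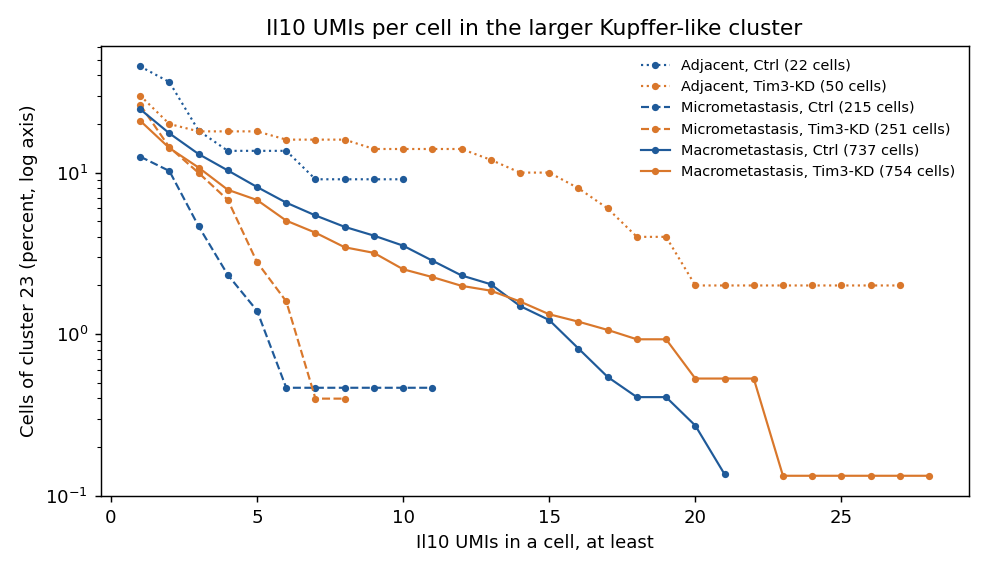
Percent of cluster 23 cells (log axis) with at least the number of Il10 UMIs on the horizontal axis, by library. The macrometastasis curves reach 21 and 28 UMIs in Ctrl and Tim3-KD and the micrometastasis curves 11 and 8, with capped cells, whose values are lower bounds, included.

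The ratio of Tim3-KD to Ctrl depended on the cells taken. In adjacent tissue it was 10.1 (7.51 to 13.7) over all cells and 0.901 (0.629 to 1.32) in Kupffer-like cells. With the class mix of both libraries set to their mean it was 0.899. Over all cells it was 6.67 relative to the trimmed mean of all genes, 3.34 as a mean over cells and 3.03 by thinned shares, and by thinned shares it was 0.443 in Kupffer-like cells. Cluster 23 alone gave 1.08 (0.754 to 1.59) by summed UMIs. Cluster 22 was 9 of the 31 Kupffer-like cells in Ctrl and 56 of the 106 in Tim3-KD. The Kupffer-like values of this paragraph therefore also carry that mix. The share of Kupffer-like cells differed between these libraries, as given above, so a library-wide value cannot be told apart from that share. Over all genes 50.3% were at least 1.5 times higher in Tim3-KD and 13.5% lower, and in Kupffer-like cells 24.3% were higher and 13.7% lower. Of 14 immediate early and stress genes in Kupffer-like cells, 7 were lower in Tim3-KD by that much and 0 higher, with a median log2 ratio of -0.59 beside 0.12 over all genes. Fewer cells of a type and less RNA per cell were separated only by the level within a class.

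In micrometastasis the ratio was 1.14 (0.928 to 1.40) over all cells, an interval that includes 1, and 2.32 (1.75 to 3.11) in Kupffer-like cells. The value over all cells was higher under 4 alternatives, at 2.00 with the class mix set to the mean, 1.55 relative to the trimmed mean of all genes, 1.45 as a mean over cells and 1.44 by thinned shares. Cluster 23 alone gave 2.06 (1.55 to 2.75). The Kupffer-like shares of the 2 libraries were near each other, at 5.39% of cells in Ctrl and 4.96% in Tim3-KD, but cluster 22 was 60 of the 275 cells in Ctrl and 4 of the 255 in Tim3-KD. Capped cells, whose values are lower bounds, were 7 and 11 of these. Over all cells 2.7% of genes were at least 1.5 times higher in Tim3-KD and 37.5% lower, and in Kupffer-like cells 14.5% were higher and 6.19% lower. Of 13 immediate early and stress genes in Kupffer-like cells, 4 were higher in Tim3-KD and 0 lower, with a median log2 ratio of 0.32 beside 0.13.

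In macrometastasis Ctrl was the higher. The ratio was 0.708 (0.647 to 0.775) over all cells, 0.642 (0.580 to 0.711) in Kupffer-like cells and 0.672 (0.607 to 0.744) in cluster 23. Outside the Kupffer-like class it was 1.27 (1.03 to 1.56). Of the UMIs behind this value, cluster 6 held 89 of 272 in Tim3-KD and 5 of 146 in Ctrl. The ratio was 1.44 (0.826 to 2.58) in T-like cells and 1.17 (0.842 to 1.62) in cluster 25, intervals that include 1. The value of 1.27 therefore does not stand for each class outside the Kupffer-like cells. Over all cells 4.58% of genes were at least 1.5 times higher in Tim3-KD and 23.3% lower, and in Kupffer-like cells 5.75% were higher and 16.7% lower. Of 11 immediate early and stress genes in Kupffer-like cells, 10 were lower in Tim3-KD and 0 higher, with a median log2 ratio of -0.95 beside -0.02. At none of the 3 sites was their part in the Il10 ratio tested.

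**Figure D5:**
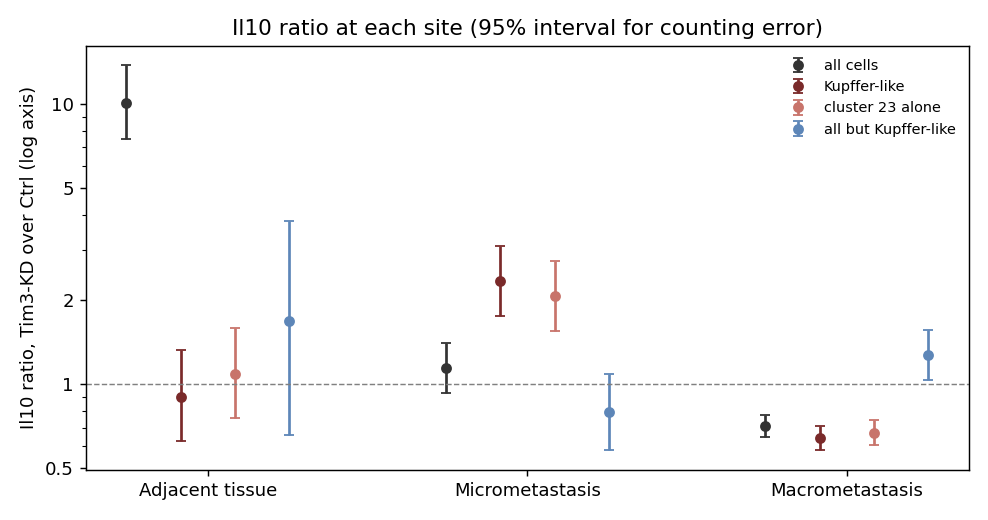
Il10 ratio of Tim3-KD over Ctrl at each site (log axis) over all cells, in Kupffer-like cells, in cluster 23 alone and in all other cells, with exact 95% intervals for counting error. The adjacent ratio of 10.1 over all cells falls to 0.901 in Kupffer-like cells, and the Kupffer-like ratio lies above 1 in micrometastasis and below 1 in macrometastasis.

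Between sites, macrometastasis held 8.07 times the Il10 of micrometastasis in Ctrl over all cells (6.80 to 9.64) and 5.02 times in Tim3-KD (4.36 to 5.79). In Kupffer-like cells these ratios were 3.60 (2.83 to 4.63) in Ctrl and 0.994 (0.835 to 1.19) in Tim3-KD. Against adjacent tissue, Kupffer-like cells of macrometastasis gave 1.02 (0.742 to 1.45) in Ctrl and 0.729 (0.609 to 0.879) in Tim3-KD. Those of micrometastasis gave 0.285 (0.190 to 0.431) in Ctrl and 0.734 (0.582 to 0.927) in Tim3-KD. The Tim3-KD ratios to adjacent tissue turned direction by thinned shares of cells, to 1.12 for macrometastasis and 1.73 for micrometastasis, so no direction can be read from them. By the same measure macrometastasis over micrometastasis was 4.18 in Ctrl and 2.15 in Tim3-KD over all cells, and 2.41 and 0.645 in Kupffer-like cells. The cap in micrometastasis was at 5.01 UMIs per 10000. With every cell limited to that value, macrometastasis over micrometastasis in Kupffer-like cells became 2.65 in Ctrl and 0.756 in Tim3-KD.

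The Pf4 and Thbs1 cluster (cluster 25, 461 cells), whose leading genes also included Alb, a hepatocyte gene, was the only other whole class with levels near 30. It held 18 UMIs in 74 cells of micrometastasis Tim3-KD, 74 in 186 cells of macrometastasis Ctrl and 83 in 196 cells of macrometastasis Tim3-KD, or 31.9, 29.6 and 34.5 CPM with overlapping intervals. Single cells held 8, 28 and 19 of these UMIs, and without them the levels were 18.2, 18.5 and 26.7 CPM. Its cells with Il10 carried 13423 CPM of 12 Kupffer cell genes, against 7734 in its cells without, and 38617 in Kupffer-like cells with Il10. Whether Kupffer cell RNA or joined cells have a part in this was not tested. A doublet score over 0.15 was found in 2.1% of its cells with Il10 and 2.7% of those without.

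Lesion macrophage-like cells, with Spp1, Trem2 and Ccl24, held Il10 at 4.11 CPM (2.51 to 6.34) in micrometastasis Ctrl, from 445 cells, and at 21.9 (12.2 to 36.1) in Tim3-KD, from 74 cells. The ratio was 5.33 (2.54 to 10.9), on 20 and 15 UMIs. One cell held 8 of the 15, and without it the Tim3-KD level was 10.4 CPM. Without the highest cell of each library the ratio was 3.17. The 7 cells with Il10 in Tim3-KD carried 5555 CPM of Kupffer cell genes and the 67 without carried 4899, whereas the 14 and 431 cells of Ctrl carried 3381 and 1778. Kupffer cell genes were thus higher in the Tim3-KD cells of this class, and their part in the Il10 difference was not tested.

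Cluster 6, led by Ctla2a, Cd34, Sox4 and Cdk6, held 89 UMIs in 22 of its 156 cells of macrometastasis Tim3-KD, or 14.9 CPM (11.9 to 18.3). In macrometastasis Ctrl it held 5 UMIs in 50 cells, or 3.06 (0.994 to 7.14), a ratio of 4.86 (2.01 to 15.3). Values in the other libraries that held it were 1.97 (0.724 to 4.29) in adjacent Ctrl, 6.59 (4.13 to 9.98) in micrometastasis Ctrl and 4.30 (2.63 to 6.65) in micrometastasis Tim3-KD. Kupffer cell genes were low here, at 18.7 CPM in its cells with Il10 and 75.1 in those without. Its cells were deep, with a median of 29435 UMIs.

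Cluster 8, led by Naaa, Cst3, the dendritic cell lectin Clec9a and antigen presentation genes such as H2-Ab1 and H2-Aa, stayed unnamed and held 13 UMIs in 10 of its 530 cells, or 1.64 CPM (0.874 to 2.81). In micrometastasis it held 5 UMIs in 94 cells of Tim3-KD, or 5.49 CPM (1.78 to 12.8), and 0 in 142 cells of Ctrl, where 3 counts would be 1.53 CPM. The interval of that ratio began at 1.97 and has no upper end. In macrometastasis it held 5 UMIs in 88 cells of Tim3-KD, 3 of them in 1 cell, or 3.84 CPM (1.25 to 8.97), and 2 in 170 cells of Ctrl, or 0.713 (0.0863 to 2.58). That ratio was 5.39 with an interval from 0.883 to 56.6, which includes 1.

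T-like cells held 87 UMIs in 40 of 2214 cells. Among the subclusters of T and NK cells, the one with regulatory T cell genes (Ctla4, Tnfrsf4, Ikzf2, Icos) stood highest at 28.1 CPM, from 50 UMIs in 20 of 271 cells. By library it had 13.4 (2.77 to 39.2) in adjacent Ctrl, 20.4 (7.48 to 44.3) in micrometastasis Ctrl, 25.7 (7.01 to 65.9) in micrometastasis Tim3-KD, 35.3 (19.3 to 59.2) in macrometastasis Ctrl and 47.0 (29.8 to 70.5) in macrometastasis Tim3-KD. No UMI was found in its 19 cells of adjacent Tim3-KD tissue, with an upper limit of 16.9 CPM, below the intervals of both macrometastases. The intervals of the 5 libraries with Il10 overlap one another. The count of 0 in adjacent Tim3-KD tissue rests on where 1 cell was placed. Cluster 15 of the clustering of all cells was also led by Ctla4 and Tnfrsf4. It held 1 UMI in 15 cells of that library, or 3.75 (0.0950 to 20.9), beside 25.1 (15.1 to 39.2) in macrometastasis Ctrl. Among the subclusters the cell with this UMI lay in the one that mixed T and B genes, described next. Naive-like T cells held 1 UMI in 664 cells together, and CD8 effector-like cells 9 in 362.

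The subcluster that mixed T and B genes, with a doublet score over 0.15 in 30.1% of its cells, held 19 UMIs in 136 cells. B-like cells held 46 UMIs in 26 of 2306 cells, with the highest level in macrometastasis Tim3-KD at 8 (5.07 to 12). Mature neutrophil-like cells held 61 UMIs in 56 of 7320 cells, and 14.3% of the cells with Il10 had a doublet score over 0.15 against 3.5% of those without. Basophil or mast-like cells had Il10 in 0 of 143 cells, with an exact upper limit of 2.55% for cells with a UMI (3 counts would be 2.10%).

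By the measure of likeness used, the genes whose levels followed Il10 most closely across 56 class-by-library groups of at least 50 cells were Fcna, Cd5l, Cd163, Folr2, C4a and Vsig4, with Pearson correlations of 0.926, 0.925, 0.924, 0.921, 0.916 and 0.906 among 1641 genes. Groups from 1 library share that library, so these are descriptions. Of these genes, Fcna, Cd5l, Cd163, Folr2 and Vsig4 were markers used to name the Kupffer-like class. Their likeness thus in part restates that this class held most Il10. Cd163, a scavenger receptor and a known target of IL-10 signalling, ranked 3. The other ranked genes that IL-10 induces in myeloid cells lay lower, from 70 for Hmox1 to 903 for Sbno2. Maf, a transcription factor that drives Il10, had 0.526 and Fos had 0.516. The other ranked regulators of Il10 transcription ran from 0.457 for Prdm1 to -0.0946 for Gata3.

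Genes of the pathway were then compared between cluster 23 cells with and without Il10. Among the inflammatory cytokines that IL-10 is known to hold down, 2 of 7 tested in adjacent tissue were at least 1.5 times higher in cells with Il10, 3 of 8 in micrometastasis and 2 of 7 in macrometastasis, and 0 were lower by that much. These were Tnf (2.45, 1.47 to 4.21) and Cxcl10 (1.63, 1.16 to 2.28) in adjacent tissue, Cxcl1 (1.51, 1.33 to 1.72), Il1a (1.53, 1.28 to 1.82) and Cxcl10 (1.69, 1.24 to 2.27) in micrometastasis, and Il6 (1.97, 1.47 to 2.60) and Cxcl10 (1.74, 1.48 to 2.05) in macrometastasis. Over all genes 11%, 8.71% and 4.51% were higher and 18.1%, 6.74% and 4.09% lower. These counts add the libraries of a site, and by library they differed. In adjacent tissue 5 of 7 were higher and 1 lower in Ctrl, and 2 of 7 higher in Tim3-KD. In micrometastasis 3 of 8 were higher in Ctrl, and 2 of 8 higher and 1 lower in Tim3-KD. In macrometastasis 0 of 7 were higher in Ctrl and 4 of 7 in Tim3-KD. With the libraries added, the list's median log2 ratios were 0.41, 0.33 and 0.35, beside -0.07, 0.06 and 0.02 over all genes. Of the genes IL-10 induces in myeloid cells, 2 of 10, 1 of 10 and 0 of 10 were higher, with medians of -0.10, 0.20 and 0.01. Of the regulators of Il10 transcription, 1 of 7, 1 of 7 and 0 of 6 were higher, and 2 of 7, 0 of 7 and 0 of 6 were lower.

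Tnfaip3, an inhibitor of NF-kB signalling, was among the genes of highest ratio in micrometastasis and was chosen for that. Its ratio was above 1 in each of the 6 libraries, as were those of 15 of the 319 genes tested in all of them, or 4.70%, and it and Ier3 were the 2 whose intervals lay above 1 in all 6. For Tnfaip3 the ratio was 3.13 (1.89 to 5.49) in adjacent Ctrl, 1.94 (1.51 to 2.51) in adjacent Tim3-KD, 2.73 (2.07 to 3.54) in micrometastasis Ctrl and 1.42 (1.17 to 1.70) in micrometastasis Tim3-KD. In macrometastasis it was 1.25 (1.10 to 1.41) in Ctrl and 1.56 (1.36 to 1.78) in Tim3-KD. Of all genes tested, 19.4%, 11.7%, 17.5%, 9.56%, 6.45% and 6.14% were at least 1.5 times higher in these libraries, in the same order, and 14.1%, 22.7%, 13.4%, 8.28%, 5.49% and 6.19% lower. Of 898 genes tested at all 3 sites, 2 were at least 1.5 times higher at each, namely Cdc42ep2, a Cdc42 effector, and the interferon-induced chemokine Cxcl10. Cxcl10 did not hold in every library, with a ratio of 0.11 in adjacent Ctrl and 1.01 in micrometastasis Ctrl against 4.03, 3.06 and 2.03 in adjacent, micrometastasis and macrometastasis Tim3-KD, and with 1.497 it was just under 1.5 times in macrometastasis Ctrl.

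Other genes of highest ratio over the whole Kupffer-like class differed by site. In adjacent tissue they were Rbm43, Rrm1, Sap25, Tmem43, Fam53b, Tnf, Nfkbiz, Epc1, Tdrd7 and Ier3, with ratios of 6.10 to 3.07. In micrometastasis they were Bbc3, Zfp608, Tnfaip3, Rnd3, Cdc42ep2, Tob1, Rab12, Dnajb4, Csf3r and Stab1, with ratios of 2.42 to 1.88. In macrometastasis they were Nfkbid, Ccl7, Gm29253, Cdc42ep2, Cxcl1, Chka, Gadd45b, Ier3, Gm6377 and Gm12840, with ratios of 1.79 to 1.52. Cluster 22 held 4 of the 462 cells with Il10 but 376 of the 2405 cells of the class, so these ratios also carry the difference between clusters 23 and 22. Within cluster 23 the adjacent genes of highest ratio were Rbm43, Tmem43, Sugp1, Fam53b, Epc1, Pcbd2, Sap25, Scly, Kmt2b and Cela1, without Rrm1, Tnf, Nfkbiz, Tdrd7 and Ier3. Over the class, of all genes tested, 16.3%, 10.4% and 5.38% were at least 1.5 times higher at the 3 sites and 13.5%, 5.96% and 4.03% lower.

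The receptor chain Il10ra, analysed in adjacent tissue and micrometastasis, was also highest in Kupffer-like cells among classes of at least 50 cells, and adjacent Ctrl tissue had only 31 of them. It stood in Kupffer-like cells at 120 CPM (87.3 to 160) in adjacent Ctrl, 119 (102.2 to 137) in adjacent Tim3-KD, 86.1 (74.9 to 98.5) in micrometastasis Ctrl and 105 (92.4 to 119) in micrometastasis Tim3-KD. Mature neutrophil-like cells had 58.3 in adjacent Ctrl, 36.1 in micrometastasis Ctrl and 31.1 in micrometastasis Tim3-KD, and T-like cells had 5.47 to 17. Il10rb, Jak1, Tyk2, Stat3, Foxp3 and the other IL-10 family cytokines were not analysed here.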

How the data were processed

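Per the labels and the study's methods, livers were enzymatically digested, CD45+ cells were sorted and 10x Genomics 3' libraries were made. Per the submitters' processing notes the authors trimmed reads with Trim Galore 0.4.3 and mapped them with STAR 2.7.7a to GRCm38, counting exons and introns. The deposited matrices, 1 per site, hold scaled scores per gene and cell: the authors normalised UMIs to 10000 per cell, took logs, regressed out the total, scaled and capped at 10. Scores were turned back into UMIs. At least 99.996% of uncapped detected values came out whole within 0.05. Capped values were set to their lower bound. In data simulated after the adjacent libraries (4486 genes) all uncapped UMIs were recovered, and genes changed 2 and 4 times gave median ratios of 2.02 and 4.04.

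Cells of all libraries were clustered with scanpy 1.11.5 (30 components, 15 neighbours, Leiden resolution 1) on 1641 genes of all matrices, without Il10. Clusters were named from marker lists, and 1 with hepatocyte markers but leading genes of another kind was left unnamed after seeing the data. No cell was removed as a doublet here. The study's methods state that the authors took out cells labelled as doublets, and whether the deposited cells had passed that step is not given. Libraries were compared by summed UMIs with exact Poisson, Clopper-Pearson and conditional intervals in scipy 1.17.1, which cover counting error only, and with 1 library per group no test was made. Genes with at least 20 UMIs were compared, adding 0.5 UMIs. The named genes are Il10, list members, the 6 genes most like Il10 by Pearson correlation of log2(CPM + 10), and the 10 of highest ratio in Il10-positive cells with at least 20 UMIs and a UMI in 25% of those cells. Members, lists and tests were chosen with earlier results of these data known. Alternatives are given at the end.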

Additional observations from a re-analysis of the deposited data

Results flagged for a closer look

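The Il10 ratio of Tim3-KD over Ctrl in Kupffer-like cells moved in opposite directions at 2 sites, at 2.32 (1.75 to 3.11) in micrometastasis and 0.642 (0.580 to 0.711) in macrometastasis. With 1 library per group this difference between sites was not tested.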

How the results depend on the processing

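No paired analysis was possible by replicate, because the labels give no replicate numbers to pair by. The lines were compared within each site, and a test that takes the 3 sites as pairs was not made. Of 183 alternative values for 45 results, 138 moved by less than their counting interval, 41 moved further and 4 reversed direction. Other clustering resolutions, another seed, leaving out cells of under 3000 UMIs and leaving out cells of a high doublet score moved none past it. For each value below the cause of the change was not tested.

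With a mean over cells in place of summed UMIs, levels were 3.11 CPM in adjacent Ctrl, 10.4 in adjacent Tim3-KD, 3.76 in micrometastasis Ctrl and 5.45 in micrometastasis Tim3-KD, and the Tim3-KD over Ctrl ratios were 3.34 in adjacent tissue and 1.45 in micrometastasis. Relative to the trimmed mean of all genes the ratios were 6.67, 1.55 and 0.853 in adjacent tissue, micrometastasis and macrometastasis. With the class mix set to the mean they were 0.899 in adjacent tissue, a reversal, and 2.00 in micrometastasis. Without the cell with the most Il10, adjacent Tim3-KD fell to 17.8 CPM, its Kupffer-like level to 78.2, and the Kupffer-like share of macrometastasis Ctrl was 87.3%.

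By thinned shares of cells, Tim3-KD over Ctrl was 3.03 in adjacent tissue, 1.44 in micrometastasis and 0.443 in Kupffer-like cells of adjacent tissue. In Ctrl, macrometastasis was 5.17 times adjacent tissue and 4.18 times micrometastasis over all cells, and 2.41 times micrometastasis in Kupffer-like cells. In Tim3-KD, micrometastasis was 0.587 times adjacent tissue over all cells, and 1.73 times in Kupffer-like cells, a reversal. Macrometastasis over adjacent tissue in Tim3-KD reversed to 1.26 over all cells and 1.12 in Kupffer-like cells. Macrometastasis over micrometastasis in Tim3-KD was 2.15 over all cells and 0.645 in Kupffer-like cells.

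Some alternatives were chosen after seeing the data. With each cell limited to the micrometastasis cap, macrometastasis was 15.6 CPM in Ctrl and 11.8 in Tim3-KD, and 74.0 and 49.5 in Kupffer-like cells. Macrometastasis over adjacent tissue was then 7.84 in Ctrl over all cells, and in Tim3-KD 0.613 over all cells and 0.592 in Kupffer-like cells. Macrometastasis over micrometastasis was 5.93 and 2.65 in Ctrl, and 3.93 and 0.756 in Tim3-KD, over all cells and in Kupffer-like cells. With cluster 23 alone, Kupffer-like levels were 126 CPM in adjacent Tim3-KD and 73.8 in macrometastasis Tim3-KD, and in Tim3-KD micrometastasis over adjacent tissue was 0.549 and macrometastasis over adjacent tissue 0.587. Without the cell of the class with the most Il10, cluster 25 was at 18.2 CPM in micrometastasis Tim3-KD, 18.5 in macrometastasis Ctrl and 26.7 in macrometastasis Tim3-KD, and lesion macrophage-like cells at 10.4 in micrometastasis Tim3-KD. The lone library per group limits every comparison between libraries, and capped values limit those that use libraries with capped cells.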
